A study of Homo sapiens with 4 samples.

Results

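The COP9 signalosome is a protein complex that removes the small modifier NEDD8 from cullins, the scaffolds of the largest class of E3 ubiquitin ligases. Cullin ligases are active while NEDD8 is attached, and its removal lets them exchange their substrate receptors. Most subunits of the complex carry a PCI domain, which builds the scaffold, and a pair of them carry an MPN domain, which in COPS5 holds the metal-dependent NEDD8 protease. Genes of this complex and COP1, the ligase overexpressed here under its older symbol RFWD2, were both first named from light-response mutants of Arabidopsis. The 9 subunit genes described below are GPS1, COPS2, COPS3, COPS4, COPS5, COPS6, COPS7A, COPS7B and COPS8. They were taken by gene name from a deposited table of 58825 genes, and each name matched 1 row. COPS9, the small additional subunit, was not among them and is given for comparison.

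The cells were ARP1, an established human cell line of multiple myeloma, which is a malignancy of plasma cells. The compared groups were ARP1 cells overexpressing RFWD2 and ARP1 cells labelled wild type, with 2 poly(A)-selected, paired-end RNA libraries each. The labels call the libraries biological repeats but do not say that they came from separate cultures, so the spread behind each p-value is that of these libraries and may be technical. How RFWD2 was introduced, whether those cells were a pool or a clone, and whether the wild type cells carried an empty vector is not stated by the labels.

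Total estimated counts were 62143098 to 70322496 in the overexpression libraries and 70149131 to 70713792 in the wild type libraries. All 9 markers of plasma and myeloma cells were present, with summed levels of 1736 and 1905 FPKM (fragments scaled by gene length and by library size) in overexpression and 1939 and 2262 FPKM in wild type cells. All 4 adipocyte markers were at 0 in every library, although a protocol field of the labels speaks of adipose material. The overexpressed gene COP1 had 13.5 and 13.9 FPKM in overexpression and 5.99 and 8.93 FPKM in wild type cells, without overlap, but did not pass the test over all genes (edgeR adjusted p = 1.0). Same-numbered libraries of different genotype were the most alike, with Pearson's r of 0.96 and 0.97 across genes on the log2 CPM scale. Libraries of 1 genotype had r of 0.90 in overexpression and 0.93 in wild type. Genes are not independent replicates, so these are descriptions. Values are therefore given for each library.

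COPS7B was the subunit gene that differed most between the genotypes, so the bases before its annotated starts are shown here, with those before a start of COPS3 beside them for comparison. COPS3 was chosen because its window also holds a match to the ZNF143 core, while its genotype groups overlapped. The stretches were taken from RefSeq promoter windows on GRCh38.p14 and end before the first base, within the window, of any exon that GENCODE release 29 annotates for the gene. The second start of COPS7B lies inside the gene, downstream of the first. Windows were found for 8 of the 9 genes, 13 windows in all, and COPS5 had none. Capitals mark matches, on either strand, to CGGAAG (core of the ETS motif), CACGTG (E-box), TGANTCA (AP-1), TGACG (CRE half-site), the core of the ZNF143 motif and GGGCGG (GC box). No matches overlap in these stretches.
COPS7B first start (chr2:231781481-231781670, plus strand): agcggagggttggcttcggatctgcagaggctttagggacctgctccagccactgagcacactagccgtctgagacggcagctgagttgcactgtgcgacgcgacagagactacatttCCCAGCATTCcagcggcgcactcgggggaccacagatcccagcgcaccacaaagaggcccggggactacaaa
COPS7B second start (chr2:231786195-231786382, plus strand): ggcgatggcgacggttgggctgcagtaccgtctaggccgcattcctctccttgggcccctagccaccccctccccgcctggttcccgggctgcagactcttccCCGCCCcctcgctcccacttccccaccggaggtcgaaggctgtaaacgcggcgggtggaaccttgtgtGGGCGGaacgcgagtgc
COPS3 (chr17:17281294-17281496, minus strand): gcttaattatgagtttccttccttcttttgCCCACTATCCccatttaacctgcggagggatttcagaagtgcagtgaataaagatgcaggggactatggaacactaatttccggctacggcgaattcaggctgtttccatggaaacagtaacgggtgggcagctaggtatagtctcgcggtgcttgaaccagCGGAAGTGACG

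The first stretch of COPS7B holds a match to the ZNF143 core, and the second holds GC boxes. The COPS3 stretch holds the ZNF143 core, an ETS core and a CRE half-site that follows directly on the ETS core. Over the full windows, which reach past the stretches shown, the ZNF143 core occurred in 3 of 13 member windows (of COPS2, COPS3 and COPS7B), against 4.63% of 34943 annotated windows. ETS cores occurred in 6 of 13 member windows, against 19.4% of all windows, and the GC box in 10 of 13, against 44.9%. The CRE half-site occurred in 6 of 13 member windows, against 24.5% of all windows. The E-box was in 1 of 13 (7.69%), against 7.23%, and an AP-1 match in 0 of 13, against 7.72%. The motifs were chosen after the sequences had been seen, windows of 1 gene can overlap, and a match is a description of letters, not of a bound site.

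All 9 subunit genes were expressed in every library, with at least 1668 and at most 12239 estimated counts, and all passed the filter on low counts. Their mean levels over the 4 libraries lay between the percentiles 50.2 and 92.0 of the 11229 genes averaging 1 FPKM or more. The sum over the 9 genes was 105 and 137 FPKM in overexpression libraries 1 and 2, and 119.9 and 156 FPKM in wild type libraries 1 and 2. Those sums split by library number within each genotype, and the genotypes overlapped.

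By mean FPKM the order was COPS6, COPS3, COPS7A, GPS1, COPS7B, COPS5, COPS4, COPS8 and COPS2. COPS6 was the most abundant in each library and did not overlap with the next gene. The other 7 of the 8 neighbouring pairs in this order had overlapping ranges over the 4 libraries. Of these, COPS4 was above COPS8 in each of the 4 libraries, and the other 6 pairs changed order between libraries.

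**Figure D1:**
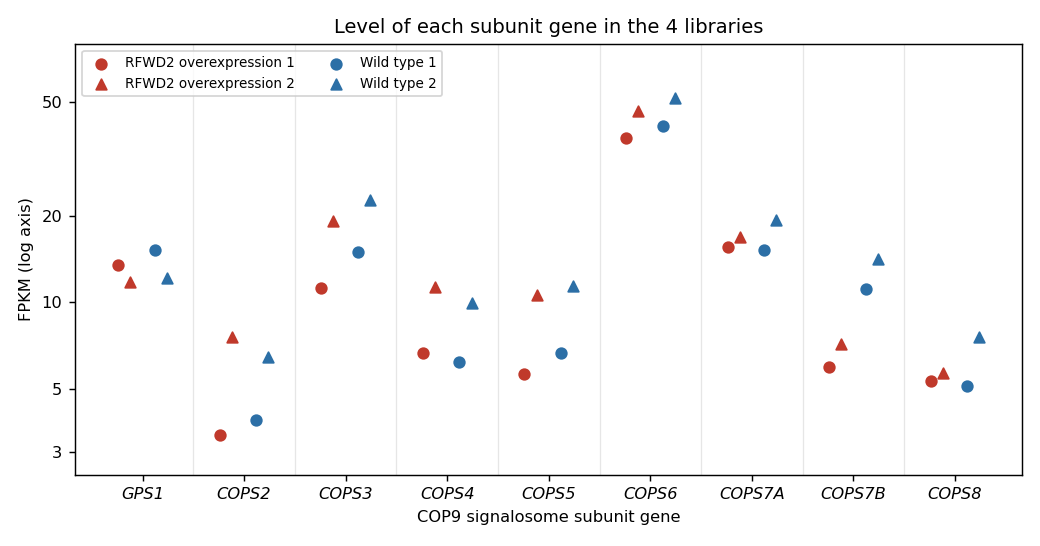
FPKM of each subunit gene on a log axis, with 1 point per library (red, RFWD2 overexpression; blue, wild type; circles, library 1; triangles, library 2). COPS6 lies above all other subunit genes in each library, and COPS7B is the gene whose overexpression libraries both lie below both wild type libraries.

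The order also depends on the length behind an FPKM value. The length implied by the deposited counts and FPKM was a near-constant multiple, with a median of 1.21, of the merged length of all exons annotated for a gene in GENCODE release 29 (11214 genes). Merged exons include those of retained-intron transcripts. For COPS5, the catalytic subunit, they come to 7779 bases, 4.80 times the longest protein-coding transcript of 1621 bases. Per kilobase of the longest coding transcript, an alternative chosen after seeing the data, COPS5 moved to rank 2 of 9 (rank 6 by FPKM), at a level 2.09 times below COPS6 (5.17 times by FPKM). COPS7A moved to rank 6 from rank 3 by FPKM, COPS7B stayed at rank 5, and COPS8 and COPS2 stayed last. Comparisons of 1 gene between libraries are not touched by this choice.

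**Figure D2:**
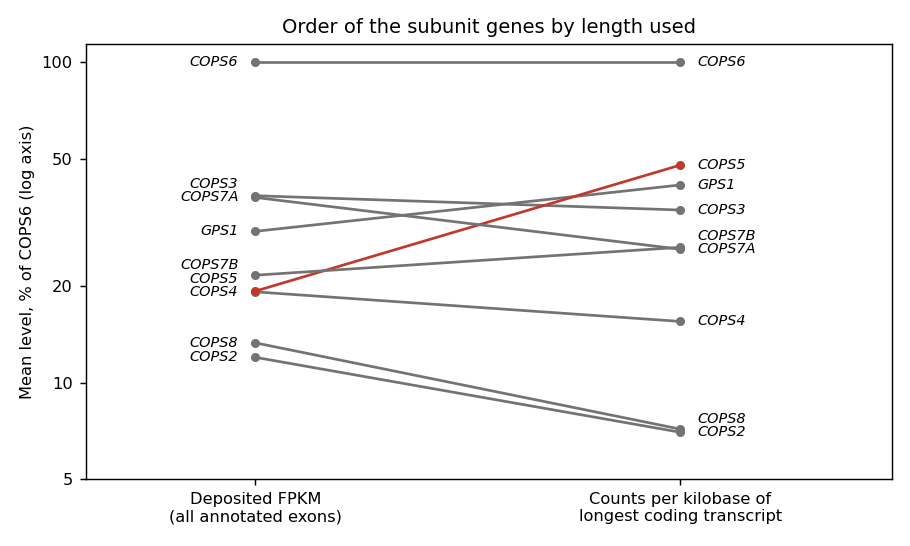
Mean level of each subunit gene over the 4 libraries, as a percentage of COPS6 on a log axis, by deposited FPKM (left) and by counts per kilobase of the longest coding transcript (right). COPS5, in red, is at rank 6 on the left and rank 2 on the right, while COPS6 is highest on both.

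The comparison of RFWD2 overexpression with wild type called 0 of the 9 subunit genes higher and 0 lower. Estimated counts were tested with the quasi-likelihood F test of edgeR, with Benjamini-Hochberg adjustment over 18873 genes and a threshold of 0.05, and it called 0.0% of all genes higher and 0.0% lower. DESeq2 and limma also called 0 of the 9. Over the 28086 genes it fitted, DESeq2 called 33 higher and 22 lower, and limma called 0 of 11229. At an unadjusted p under 0.05 there was 1 subunit gene, COPS7B, with a lower value. Such a p with a lower value was held by 0.583% of all genes tested, with a higher value by 1.25%, and in either direction by 1.83%. Log2 fold changes of the 9 genes had a median of -0.19 and ran from -0.99 to 0.09, and 7 were below 0. Over all genes tested the median was 0.01, with quartiles of -0.22 and 0.30, and 48.4% were below 0.

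COPS7B (ENSG00000144524, chromosome 2, 231781671 to 231809254, plus strand, as the table gives it) and COPS7A (ENSG00000111652, chromosome 12, 6724014 to 6731875, plus strand) encode alternative forms of the same PCI subunit. A complex holds either form. COPS7B had 5.97 and 7.16 FPKM in overexpression libraries 1 and 2, and 11.1 and 14.2 FPKM in wild type libraries 1 and 2. Both overexpression libraries lay below both wild type libraries, and 6.44% of the genes averaging 1 FPKM or more did likewise. None of the subunit genes lay above without overlap, which 9.55% of those genes did. The means were 6.57 ± 0.85 FPKM in overexpression and 12.7 ± 2.21 FPKM in wild type cells (mean ± SD of 2 libraries each), a ratio of 0.518. In bulk RNA, fewer cells expressing a gene and less RNA per cell cannot be told apart.

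The log2 fold change of COPS7B was -0.99 ± 0.33 (SE), with a 95% interval of -1.80 to -0.17, and was -0.89 between the libraries numbered 1 and -1.08 between those numbered 2. Its unadjusted p was 0.025 and its edgeR adjusted p was 1.0. The difference kept its sign in each of the 12 alternative fits, between -1.05 and -0.85, with adjusted p-values from 0.587 to 1.0. An antisense gene model, AC073476, overlaps COPS7B and had at most 0.720 FPKM. Whether the counting used strand is not stated, so reads of the pair cannot be told apart.

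COPS7A had 15.7 and 16.9 FPKM in overexpression and 15.2 and 19.5 FPKM in wild type cells, and the groups overlapped. Its log2 fold change was -0.12 ± 0.34 (SE), with a 95% interval of -0.96 to 0.72 (edgeR adjusted p = 1.0).

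**Figure D3:**
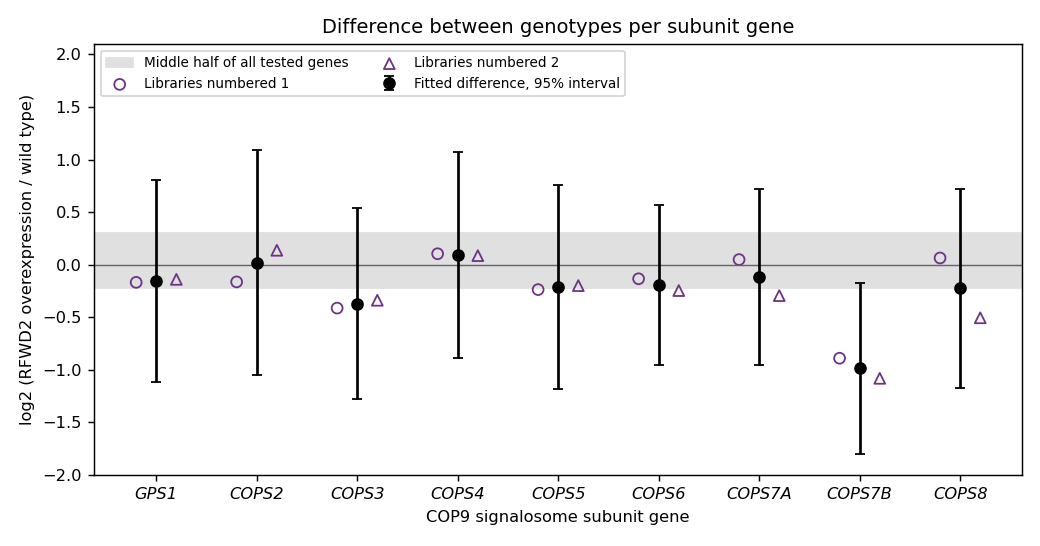
Log2 ratio of RFWD2 overexpression over wild type for each subunit gene. Filled points are fitted differences with 95% intervals, open circles and triangles are differences between the libraries numbered 1 and 2, and the grey band spans the quartiles of all tested genes. COPS7B, at -0.99, is the gene whose interval does not reach 0.

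The makeup of the COPS7 pair differed in the same libraries. COPS7A took 72.4% and 70.3% of the summed FPKM of COPS7A and COPS7B in libraries 1 and 2 of overexpression, and 57.8% and 57.8% in those of wild type. The groups did not overlap, with means of 71.3% ± 1.54 in overexpression and 57.8% ± 0.029 in wild type cells (SD over 2 libraries each). The difference of 13.6 percentage points was larger than either SD, but an exact two-sided permutation test gave p = 0.333, the smallest that 2 libraries against 2 allow. Taken per kilobase of the longest coding transcript, COPS7A had 59.7% and 57.1% in overexpression and 43.6% and 43.6% in wild type. On this scale COPS7A was the more abundant form in the overexpression libraries and COPS7B in the wild type libraries, whereas by FPKM COPS7A was the more abundant form in each library. This share restates the COPS7B difference against a gene of overlapping levels and is not separate evidence.

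**Figure D4:**
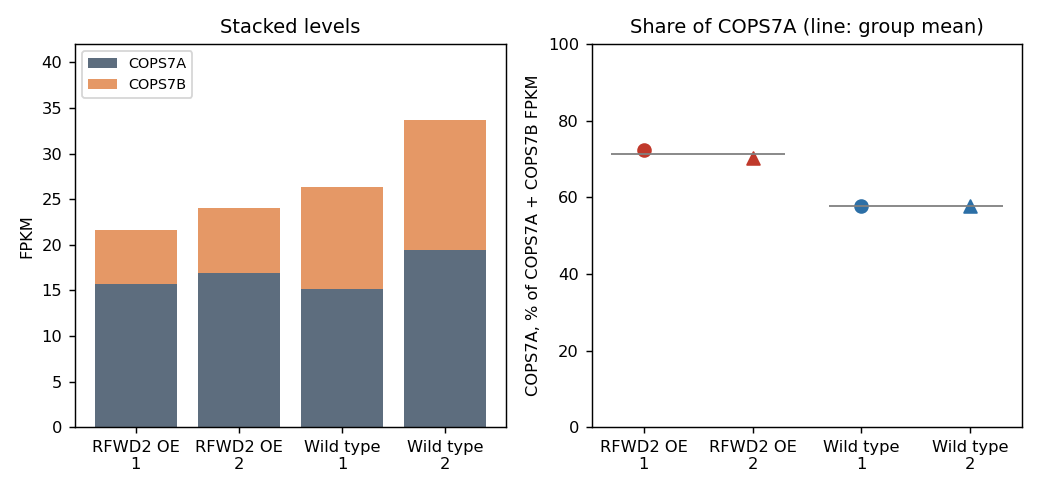
Left, FPKM of COPS7A and COPS7B stacked for each library, RFWD2 overexpression (OE) before wild type. Right, the share of COPS7A in their sum in percent, with a line at each group mean. The shares are 72.4% and 70.3% in overexpression and 57.8% in both wild type libraries.

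The MPN subunits did not pass the test. COPS5, the protease that cuts NEDD8 from cullins (ENSG00000121022, chromosome 8, minus strand), had 5.61 and 10.6 FPKM in overexpression libraries 1 and 2, and 6.64 and 11.4 FPKM in wild type libraries 1 and 2. In both genotypes library 2 was the high library. The log2 fold change was -0.21 ± 0.40 (SE), with a 95% interval of -1.19 to 0.76, and was -0.24 and -0.20 between libraries numbered 1 and 2. Its sign turned when overexpression library 1 (0.042) or wild type library 2 (0.079) was left out. CSPP1, on the opposite strand, overlaps COPS5 and had 1.40 and 4.46 FPKM in overexpression and 2.40 and 3.42 FPKM in wild type cells, so it too was higher in library 2, and its part in the COPS5 values was not tested.

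COPS6 (ENSG00000168090, chromosome 7, 100088969 to 100092187, plus strand) encodes the MPN partner of COPS5, which lacks the metal-binding residues of the protease. It had 37.7 and 46.5 FPKM in overexpression and 41.5 and 51.7 FPKM in wild type cells. By FPKM the groups overlapped, and the log2 fold change was -0.19 ± 0.31 (SE), with a 95% interval of -0.95 to 0.57. On the log2 CPM scale (counts by library size) with TMM scaling, both overexpression libraries lay below both wild type libraries. The differences there were small, at -0.13 between libraries numbered 1 and -0.25 between those numbered 2. The share of all genes that did likewise on that scale was not computed.

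Among the PCI subunits, GPS1 (subunit 1, chromosome 17, 82050691 to 82057470, plus strand) had 13.5 and 11.8 FPKM in overexpression libraries 1 and 2, and 15.3 and 12.2 FPKM in wild type libraries 1 and 2. It was the member with the higher FPKM in library 1 of each genotype. Its log2 fold change was -0.16 ± 0.39 (SE) and became 0.09 when overexpression library 2 was left out and 0.15 when wild type library 1 was. RFNG overlaps GPS1 on the opposite strand and had 5.33 and 2.19 FPKM in overexpression and 3.18 and 1.91 FPKM in wild type cells.

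COPS2 (chromosome 15, 49106068 to 49155604, minus strand), whose product reaches the cullin and RING end of a bound ligase, had 3.45 and 7.56 FPKM in overexpression and 3.87 and 6.45 FPKM in wild type cells. The overexpression libraries enclosed the wild type libraries. Its log2 fold change of 0.02 ± 0.44 (SE) had a 95% interval of -1.05 to 1.09 and changed sign in leave-one-out fits, between -0.43 without overexpression library 2 and 0.36 without overexpression library 1.

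COPS3 (chromosome 17, 17246616 to 17281273, minus strand) had 11.2 and 19.2 FPKM in overexpression and 15.0 and 22.7 FPKM in wild type cells. It was lower in overexpression within both library numbers, by log2 differences of -0.41 and -0.34, yet the groups overlapped. Its fitted log2 fold change was -0.37 ± 0.37 (SE), with a 95% interval of -1.28 to 0.54.

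COPS4 (chromosome 4, 83034447 to 83075797, plus strand), a subunit that contacts bound cullin ligases, had 6.65 and 11.3 FPKM in overexpression and 6.20 and 9.98 FPKM in wild type cells. Its log2 fold change was 0.09 ± 0.40 (SE) and reached -0.13 when overexpression library 2 was left out, and 0.33 when wild type library 2 was.

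COPS8, the smallest PCI subunit (chromosome 2, 237085882 to 237100474, plus strand), had 5.32 and 5.67 FPKM in overexpression and 5.11 and 7.56 FPKM in wild type cells. Wild type library 2 was the high library, and the other 3 lay together. The log2 fold change was -0.23 ± 0.39 (SE), with differences of 0.06 and -0.51 between libraries numbered 1 and 2. A processed copy of it in the table, COPS8P2, reached at most 0.758 FPKM.

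COPS9 had 12.4 and 11.2 FPKM in overexpression and 13.7 and 11.3 FPKM in wild type cells, with a log2 fold change of -0.13 ± 0.42 (SE) and an edgeR adjusted p of 1.0. Like GPS1, it was higher in library 1 of each genotype. The 95% intervals of the subunit genes other than COPS7B all include 0, reach down to at least -0.89 and reach up to at least 0.54. The overlap of their groups by FPKM thus does not show equal levels.

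COPS2, COPS4, COPS5 and GPS1 differed more between the libraries of the same genotype than between same-numbered libraries of different genotype. For COPS3 these differences were of about the same size. On the log2 CPM scale (counts by library size) with TMM scaling, COPS2, COPS3, COPS4 and COPS5 were higher in library 2 than in library 1 in both genotypes. COPS2 differed by 0.79 in overexpression and 0.49 in wild type, COPS3 by 0.43 and 0.36, COPS4 by 0.42 and 0.44, and COPS5 by 0.58 and 0.54. GPS1 differed by -0.54 in overexpression and -0.57 in wild type. Directions of these 5 genes were the same by FPKM. With TMM scaling 4 of 9 were higher in library 2 in both genotypes, as were 39.3% of tested genes averaging 1 FPKM or more, and 1 of 9 was lower in both, as were 42.3%.

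COPS6, COPS7A, COPS7B and COPS8 were lower in library 2 of overexpression with TMM scaling, at -0.25 to -0.04, but higher by FPKM, at 0.09 to 0.30. The FPKM columns were higher in library 2 for genes in general, by a median log2 difference of 0.26 in overexpression and 0.24 in wild type over 11229 genes. Over the 9 subunit genes the median absolute log2 difference was 0.16 and 0.25 between same-numbered libraries of different genotype, 0.42 within overexpression and 0.36 within wild type. Genes of the mitochondrial genome held 7.46% and 4.96% of counts in libraries 1 and 2 of overexpression, and 7.68% and 4.27% in those of wild type, and the part of this difference in the subunit values was not tested.

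**Figure D5:**
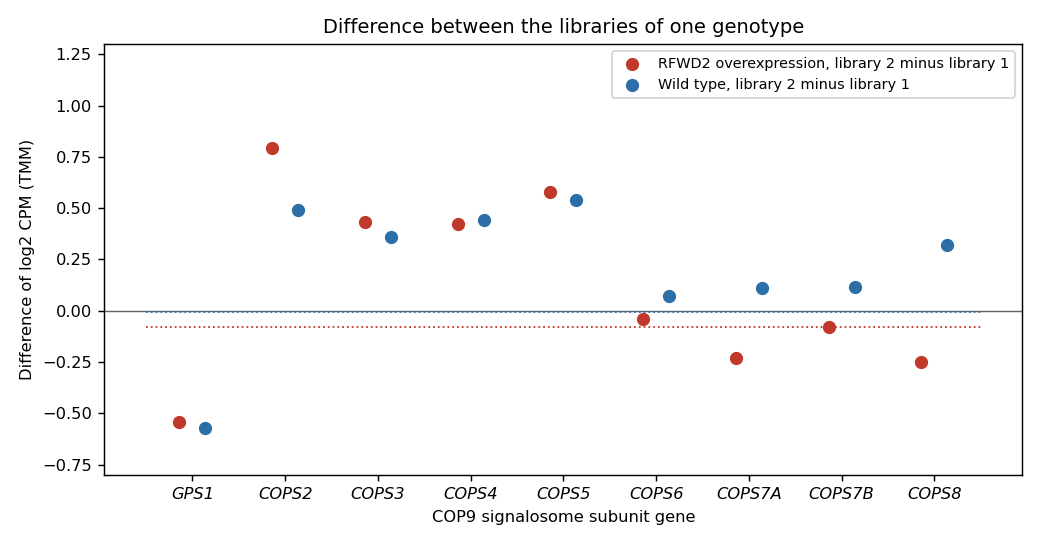
Log2 difference of library 2 minus library 1, with TMM scaling, for each subunit gene in RFWD2 overexpression (red) and wild type (blue). Dotted lines are the medians over tested genes averaging 1 FPKM or more. COPS2, COPS3, COPS4 and COPS5 lie above 0 and GPS1 below 0 in both genotypes.

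Of 3431 genes averaging 10 FPKM or more, those whose centred log2(FPKM + 1) over the 4 libraries lay nearest to the mean profile of the subunit genes included COX15, PHB, FTSJ1 and REEP5. Their root mean square distances were 0.019 to 0.031. Among the subunit genes COPS6 was nearest to that profile (0.056), and GPS1 (0.330) and COPS7B (0.341) were farthest. The profile was -0.30 and 0.11 in libraries 1 and 2 of overexpression, and -0.11 and 0.29 in those of wild type, and with 4 libraries such likeness is a description only.

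NEDD8 and the enzymes and cofactors that attach it to cullins, the step that the signalosome undoes, were called in 0 of 10 cases. Their median log2 fold change was -0.14, and 6 were below 0. NEDD8 itself had 23.4 and 22.0 FPKM in overexpression and 22.0 and 22.4 FPKM in wild type cells. The members with the smallest unadjusted p were DCUN1D3, UBE2F, DCUN1D1 and UBA3. DCUN1D3, a co-E3 for NEDD8, had 1.06 and 1.03 FPKM in overexpression and 1.17 and 1.40 FPKM in wild type cells, without overlap (log2 fold change -0.31 ± 0.42, SE). UBE2F, a NEDD8-conjugating enzyme, had 2.26 and 3.53 FPKM in overexpression and 3.90 and 2.80 FPKM in wild type cells. DCUN1D1 and UBA3, a co-E3 and the catalytic subunit of the NEDD8-activating enzyme, had log2 fold changes of -0.32 and -0.27.

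Of these 10 genes, 5 were higher in library 2 in both genotypes with TMM scaling and 3 were lower in both. The shares over tested genes averaging 1 FPKM or more were 39.3% and 42.3%. NAE1, the partner of UBA3, had 1.91 and 9.41 FPKM in overexpression libraries 1 and 2, and 2.81 and 9.66 FPKM in wild type libraries 1 and 2. In both genotypes library 1 was the low library.

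Cullins, their RING proteins and adaptors, the substrates and partners of the signalosome, were called in 0 of 14 cases, with a median log2 fold change of -0.0041 and 7 members on either side of 0. ELOC, an adaptor of cullin 2 and cullin 5 ligases, had 8.63 and 12.6 FPKM in overexpression and 10.0 and 14.4 FPKM in wild type cells. CUL7 had 20.6 and 6.40 FPKM in overexpression and 12.1 and 6.94 FPKM in wild type cells. Library 1 was the high library in both genotypes, and overexpression library 1 was far above the other 3. RBX1, the RING protein of most cullin ligases, and ELOB, the partner of ELOC, had log2 fold changes of -0.22 and -0.23. With TMM scaling 9 of the 14 were higher in library 2 in both genotypes, CUL1, CUL2, CUL3, CUL4A, CUL4B and CUL5 among them. The other 5, CUL7, CUL9, RNF7, ELOB and DDB1, were lower in library 2 in both. Over tested genes averaging 1 FPKM or more, 39.3% were higher in both and 42.3% lower in both.

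Regulators of the cullin cycle were called in 0 of 6 cases, with a median log2 fold change of -0.17. SENP8, another protease that acts on NEDD8, stayed under 1 FPKM in each library, at 0.229 and 0.710 FPKM in overexpression and 0.321 and 0.944 FPKM in wild type cells. CAND1, the receptor exchange factor that binds cullins free of NEDD8, had 2.79 and 7.74 FPKM in overexpression and 4.07 and 6.93 FPKM in wild type cells. USP15, a ubiquitin protease that associates with the signalosome, had a log2 fold change of -0.36 ± 0.64 (SE). ITPK1, an inositol phosphate kinase that binds the complex, had 16.9 and 17.4 FPKM in overexpression and 19.8 and 17.9 FPKM in wild type cells. Its groups did not overlap by FPKM, and 6.44% of genes averaging 1 FPKM or more lay below likewise. With TMM scaling they overlapped, with overexpression library 1 above wild type library 2 (log2 fold change -0.18 ± 0.34, SE).

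The lid of the 26S proteasome and the translation factor eIF3 share the PCI and MPN architecture of the signalosome. Lid genes were called in 0 of 9 cases, with a median log2 fold change of -0.14 and 8 members below 0. PSMD7, the lid counterpart of COPS6, had 19.2 and 40.3 FPKM in overexpression and 27.0 and 46.3 FPKM in wild type cells. PSMD11, the counterpart of COPS2, had 10.3 and 19.9 FPKM in overexpression and 12.8 and 23.8 FPKM in wild type cells. The groups overlapped for both genes, and library 2 was the high library in both genotypes. PSMD3 and PSMD8, the counterparts of COPS3 and COPS8, had log2 fold changes of -0.18 and -0.14.

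The counterpart of COPS5, the lid protease gene PSMD14, had 3.18 and 9.17 FPKM in overexpression and 4.75 and 8.68 FPKM in wild type cells. PSMD13, the counterpart of the COPS7 pair, had a log2 fold change of -0.12 ± 0.30 (SE), at 35.9 and 44.3 FPKM in overexpression and 39.7 and 44.4 FPKM in wild type cells. PSMD13 and PSMD14 were named after their values were seen.

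Genes of eIF3 were called in 0 of 8 cases, with a median log2 fold change of -0.03. EIF3C had 45.9 and 47.4 FPKM in overexpression and 56.5 and 70.3 FPKM in wild type cells, without overlap (log2 fold change -0.47 ± 0.31, SE, edgeR adjusted p = 1.0). It has a near-identical copy, EIF3CL, between which and EIF3C the counting could split reads. EIF3A, the large scaffold subunit, had 18.9 and 54.6 FPKM in overexpression and 25.8 and 59.0 FPKM in wild type cells. EIF3H and EIF3F, the MPN subunits, had log2 fold changes of 0.08 and -0.06.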

How the data were processed

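RNA levels of 4 libraries were read from 1 deposited table, with groups taken from the genotype labels and replicate numbers from the titles. The count columns were treated as estimated counts, which were already whole numbers in the deposited table, because 35.4% to 36.0% of values from 1 to 19 are multiples of 4. The FPKM columns are the authors', per the file headers, and their placeholder of 0.0001 was set to 0. Per the submitters' processing notes, which give no roles, the tools included StringTie 1.3.0, HISAT2 2.0 and Bowtie 0.12.2, and the build listed is mm8, of mouse. The table holds 58825 human and 0 mouse Ensembl gene identifiers. How reads were counted, with or without strand and on which annotation, is not stated in the labels or headers.

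Genes were tested with edgeR 4.0.16 in R 4.3.3 (TMM factors, filterByExpr, quasi-likelihood F test, no block, Benjamini-Hochberg adjustment over 18873 genes). Standard errors are the log2 fold change divided by the root of F, and 95% intervals use the moderated degrees of freedom. Differences between single libraries are on the log2 CPM scale, at a prior count of 2. DESeq2 1.42.0 and limma 3.58.1 on log2(FPKM + 1) were alternatives. The fits were tested on simulated data. At an adjusted p under 0.05 edgeR recovered 1.25% of simulated 2-fold changes, 40% of 4-fold and 98.3% of 16-fold changes. Of the 2-fold changes DESeq2 recovered 7.5% and limma 0%. A change of about 2-fold could thus rarely be called with these libraries. Named genes are the 9 members, COPS9, COP1, up to 4 genes per list with the smallest p, and the 5 genes nearest in profile, of which 1 is not reported here, and other genes named were chosen after their values were seen. Members and lists were chosen with earlier results of these data known. Protein sequences were not used here.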

Additional observations from a re-analysis of the deposited data

How the results depend on the processing

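Counts of called subunit genes were 0 higher and 0 lower in each of the 12 alternative fits. Over all genes, 0 higher and 0 lower became 33 and 22 with DESeq2, 2 and 6 with edgeR without a filter on low counts, and 49 to 80 and 24 to 103 with 1 library left out. The median log2 fold change of the 9 subunit genes, -0.19, ran from -0.23 without wild type library 1 to -0.064 without wild type library 2. COPS3, COPS6, COPS7A, COPS7B and COPS8 kept their sign in all 12. COPS3 ran from -0.60 without overexpression library 2 to -0.18 without overexpression library 1. COPS7A was -0.24 without overexpression library 1 and -0.0048 without overexpression library 2, and COPS8 was -0.38 when wild type library 1 was left out and -0.056 when wild type library 2 was. With 1 library left out, GPS1 ran from -0.46 to 0.15, COPS2 from -0.43 to 0.36, COPS4 from -0.13 to 0.33 and COPS5 from -0.53 to 0.079. Such fits set unequal mixtures of library numbers against each other, and their spread comes from the group that keeps both libraries, the lone library being assumed to vary alike. COPS7B had an unadjusted edgeR p of 0.072 to 0.235 in these, and a limma p of 0.051 on log2(FPKM + 0.1).

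Deviations of same-numbered libraries from their group means correlated at 0.59 over genes, but the labels do not pair them. With the replicate number as a block, edgeR called 0 genes, with 1201 at an unadjusted p under 0.05 against 346 without it. COPS2 changed sign to -0.013, and COPS7B had an edgeR adjusted p of 0.587. The COPS7A share differed by 14.8 percentage points by counts and by 14.8 per kilobase of the longest coding transcript, against 13.6 by FPKM. With 2 libraries a group, a subunit gene that did not pass the test is not shown to be equal between the genotypes.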
